A study of Mus musculus with 12 samples.

Results

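Type I interferon response genes are the genes that cells switch on after type I interferon binds its receptor. A list of 45 of them was followed by RNA-seq in mouse osteoclasts, which form from monocytes and resorb bone. All 45 were found by gene symbol, each once, among the 55806 genes of the deposited table, and all 45 reached 1 FPKM in at least 3 libraries, the filter on low values. FPKM, the unit of the table, is the number of fragments on a gene scaled by its length and by library depth. Monocytes came from the marrow of mice 8 to 12 weeks old and were cultured with M-CSF and RANKL until day 4. The 12 libraries formed 4 groups of 3, control and Per1 knockout in each sex, with replicates 1 to 3 in batches of the same number. Per1 is a repressor in the circadian clock. The library names mark the knockout allele as conditional, while the labels name neither the deleting enzyme, the deleted part nor the alleles of the controls, nor do they say whether replicates came from separate mice. They call the replicates biological and give each a batch. The p-values therefore cover only the variation among these libraries, some of which may be technical.

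The targeted gene did not separate the groups. Per1 stood at 3.70, 3.63 and 2.69 FPKM in male controls and at 2.36, 2.66 and 2.99 FPKM in male libraries labelled knockout. In females it was at 2.46, 3.33 and 3.03 FPKM in controls and at 4.04, 3.83 and 2.82 FPKM in libraries labelled knockout. The groups overlapped in both sexes, so "knockout" below is the label of a library. FPKM sums all exons, and a deletion of part of the transcript need not be visible in it. Libraries held 15366600 to 24346288 fragments.

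Binding of type I interferon to its receptor, a pair of chains encoded by Ifnar1 and Ifnar2, activates the kinases TYK2 and JAK1. These phosphorylate STAT proteins such as STAT2, which acts in a complex with IRF9 that binds interferon-stimulated response elements in promoters. In the osteoclast lineage, interferon beta is known as a feedback inhibitor of differentiation that RANKL itself induces. The genes on the list encode the factors of this pathway, sensors of foreign nucleic acid, antiviral enzymes and GTPases, and proteins that attach or remove the ubiquitin-like protein ISG15.

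The element was searched for in promoter sequence as a description of the list. Members were chosen as interferon response genes, so a high share would follow from that choice. Such a share carries no information on these libraries. RefSeq promoter windows on GRCm38.p6, 250 bases before to 50 bases after each start, were held for 34 of the 45 members. The response element core, searched as GAAA, any 2 bases and GAAA again, on either strand and with overlapping matches counted, lay in the window of 21 of these 34 (61.8%). Among all 27025 genes with a window the share was 3.99%. The gamma-activated sequence TTCNNNGAA, a palindrome, lay in 7 of the 34 (20.6%), against 9.55% of all genes. The median separation of members, a measure defined below, was 2.11 with the response element core and 2.21 without it. A match of letters is a description and not a bound site. The 250 bases before the start of 6 members follow, 5′ to 3′ in the direction of the gene, with matches to the core in capitals. Isg15 (chr4:156200819-156201068, minus strand) holds 3 overlapping matches and Bst2 (chr8:71537473-71537722, minus strand) holds 2. Ifit3 (chr19:34583279-34583528, plus strand) and Ifit3b (chr19:34607707-34607956, plus strand), neighbouring copies, hold 2 each on the opposite strand. Gbp7 (chr3:142530086-142530335, plus strand), the member with the smallest separation described below, holds 1, also on the opposite strand. Irf7 (chr7:141266425-141266674, minus strand), among the members with the widest separation, holds none in this window.
Isg15: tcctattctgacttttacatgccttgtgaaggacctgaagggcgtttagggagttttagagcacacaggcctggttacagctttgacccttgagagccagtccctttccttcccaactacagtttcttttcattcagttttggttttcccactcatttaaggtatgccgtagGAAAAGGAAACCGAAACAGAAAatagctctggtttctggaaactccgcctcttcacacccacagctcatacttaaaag
Bst2: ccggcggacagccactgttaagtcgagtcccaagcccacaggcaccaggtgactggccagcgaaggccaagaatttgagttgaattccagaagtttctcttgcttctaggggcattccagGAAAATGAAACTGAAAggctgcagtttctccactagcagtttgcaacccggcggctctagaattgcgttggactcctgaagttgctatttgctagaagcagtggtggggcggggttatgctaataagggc
Ifit3: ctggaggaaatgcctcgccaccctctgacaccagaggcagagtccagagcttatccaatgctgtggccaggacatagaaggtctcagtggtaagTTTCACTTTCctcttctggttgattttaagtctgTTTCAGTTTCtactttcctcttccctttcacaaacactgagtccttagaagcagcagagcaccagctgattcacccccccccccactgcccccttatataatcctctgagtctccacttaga
Ifit3b: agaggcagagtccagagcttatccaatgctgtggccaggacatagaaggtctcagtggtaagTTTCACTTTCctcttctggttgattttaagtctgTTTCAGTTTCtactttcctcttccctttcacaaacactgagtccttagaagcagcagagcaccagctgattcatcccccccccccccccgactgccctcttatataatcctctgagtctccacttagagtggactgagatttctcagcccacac
Gbp7: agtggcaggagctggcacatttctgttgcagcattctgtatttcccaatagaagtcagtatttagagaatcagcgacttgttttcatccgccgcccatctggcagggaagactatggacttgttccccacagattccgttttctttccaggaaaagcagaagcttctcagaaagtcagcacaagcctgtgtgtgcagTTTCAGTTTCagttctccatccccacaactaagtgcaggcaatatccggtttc
Irf7: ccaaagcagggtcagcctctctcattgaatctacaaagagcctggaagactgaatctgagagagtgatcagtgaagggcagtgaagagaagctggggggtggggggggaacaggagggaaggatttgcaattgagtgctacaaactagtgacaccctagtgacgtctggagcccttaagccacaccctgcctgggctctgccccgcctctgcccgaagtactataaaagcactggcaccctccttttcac

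The matches began 78, 72 and 66 bases before the start of Isg15, 130 and 124 before Bst2, and 53 before Gbp7. In Ifit3 they began at 156 and 122, and in Ifit3b at 188 and 154. The windows of Ifit3 and Ifit3b aligned over 218 bases with 216 identical. Counting may have split fragments between these copies, so their single values are uncertain. The same holds for Oas1a with Oas1g, the guanylate-binding proteins, Ifi204 and Ifi27l2a. Values of the overlapping or adjoining Parp9 and Dtx3l, on opposite strands, are uncertain because no source names the strand setting of the counting.

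Female control 2, female knockout 1 and female knockout 2 stood apart from the other 9 in every member. They were picked out by interferon gene levels in these data, so what follows describes their size and composition, and no test of the 3 against the 9 was made. Each of the 3 lay above each of the other 9 in 45 of 45 members, where 10.1% of the 12237 genes tested lay above in all 3 and 10.1% lay below. No member was constant across the 12 libraries. Members took 0.852% to 1.03% of the fragments of these 3 libraries and 0.174% to 0.396% in the others. The median member stood at 34.7 to 42.1 FPKM in the 3 and at 6.93 to 17.2 FPKM in the 9. In bulk RNA, a different number of expressing cells and a different level per cell cannot be told apart.

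**Figure D1:**
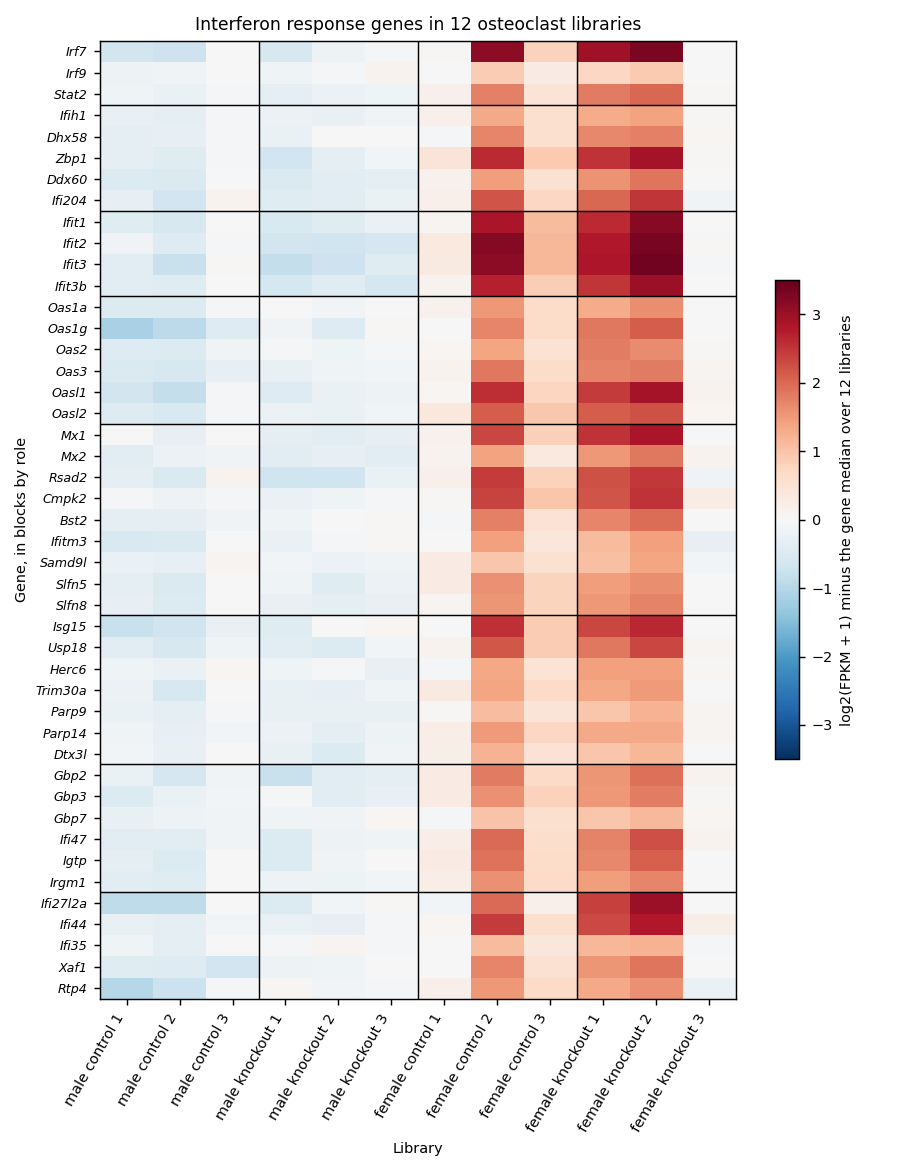
Level of each of the 45 genes (vertical axis, in blocks by role) in each of the 12 libraries (horizontal axis), as log2(FPKM + 1) minus the median of the gene over the 12 libraries. Female control 2, female knockout 1 and female knockout 2 are the darkest red in all 45 genes, and female control 3 is next in all 45.

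Separation is given below as the lowest FPKM of the 3 divided by the highest FPKM of the 9. Its median over the members was 2.14, from 1.36 in Gbp7 to 4.89 in Ifi44. Ifi44 passed the filter on low values only through the 3, since outside them only female control 3 reached 1 FPKM. Separation was above 2 in 27 members, where 103 of all genes tested (0.842%) reached this, and above 3 in 9. In 5 members it was under 1.5, namely Gbp7, Samd9l, Irf9, Dtx3l and Parp9. Rescaling the libraries by median ratios left all 45 separate, at 1.35 to 4.84. Values are listed in the order female control 2, female knockout 1, female knockout 2; then female control 1, female control 3, female knockout 3; then male controls 1 to 3 and male knockouts 1 to 3.

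Among the 3 transcription factors, separation ranged from 1.39 to 4.54. Irf7, the factor that amplifies interferon production, stood at 213, 189 and 239 FPKM in the 3 libraries and at 24.3, 41.6 and 22.99 FPKM in the other females. Male controls had 14.7, 13.7 and 23.7 FPKM of Irf7 and male knockouts 15.4, 20.7 and 22.9. The separation was 4.54, and male groups overlapped. Irf9, the DNA-binding partner of STAT2, stood at 17.7, 15.9 and 18.4 FPKM against 9.19, 11.4 and 9.20 in the other females. In males it was at 8.02, 8.28 and 9.19 FPKM in controls and 8.12, 8.80 and 10.02 in knockouts, a narrow range. Irf9 had a separation of 1.39 and the smallest spread of the list, 2.29 times from the lowest to the highest library. Stat2, its partner, separated by 2.58.

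The nucleic acid sensors comprised Ifih1, Dhx58, Ddx60, Zbp1 and Ifi204, with 4 of 5 separated by more than 2. Zbp1, a sensor of Z-form nucleic acid, stood at 35.99, 33.5 and 44.3 FPKM in the 3 libraries, 7.30, 10.4 and 5.23 in the other females, 3.81, 3.51 and 4.83 in male controls and 2.77, 3.74 and 4.66 in male knockouts. Its separation was 3.23, and male groups overlapped. Ifih1, which encodes the RNA sensor MDA5, stood at 12.5, 12.3 and 13.4 FPKM in the 3, 5.15, 6.96 and 4.61 in the other females, 3.54, 3.41 and 4.28 in male controls and 3.71, 3.53 and 3.99 in male knockouts. At 1.77 it was the least separated sensor, although the 3 lower female libraries also lay above all 6 male ones.

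The IFIT family, proteins that bind foreign RNA and hinder its translation, was the most evenly separated role, with all 4 members between 2.90 and 3.51. Ifit3b stood at 20.5, 17.2 and 24.9 FPKM in the 3, 2.49, 4.91 and 2.27 in the other females, 1.48, 1.40 and 2.19 in male controls and 1.13, 1.40 and 1.11 in male knockouts. Ifit1 stood at 77.4, 65.1 and 97.9 FPKM in the 3, 10.7, 22.5 and 9.75 in the other females, 7.06, 6.31 and 9.95 in male controls and 6.47, 7.15 and 8.28 in male knockouts. For both, female control 3 came next after the 3, and for Ifit1 it was 2.10 times the next library, the widest such step on the list.

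Some proteins of the OAS family, though not all, make oligoadenylates that activate the nuclease RNase L. Of the 6 OAS genes on the list, 4 separated by more than 2. Oasl1 stood at 33.3, 30.1 and 42.1 FPKM in the 3, 5.03, 8.70 and 5.32 in the other females, 2.66, 2.21 and 4.51 in male controls and 3.20, 3.91 and 4.12 in male knockouts, a separation of 3.46. Oas1a stood at 95.8, 82.1 and 103 FPKM in the 3, 36.4, 51.6 and 32.9 in the other females, 23.1, 23.3 and 31.2 in male controls and 32.3, 30.7 and 32.7 in male knockouts, a separation of 1.59. Oas1a was higher than Oasl1 in every one of the 12 libraries.

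The 9 antiviral effectors separated by 1.37 to 3.05, with 5 above 2. Mx1, a GTPase that blocks influenza viruses, stood at 24.4, 27.8 and 35.5 FPKM in the 3, 4.51, 8.00 and 4.00 in the other females, 3.98, 3.12 and 4.00 in male controls and 3.02, 2.78 and 3.10 in male knockouts. Samd9l, which restricts poxviruses, stood at 57.3, 60.4 and 75.9 FPKM in the 3, 34.96, 41.8 and 26.8 in the other females, 24.4, 23.2 and 30.6 in male controls and 26.9, 24.5 and 25.6 in male knockouts. Mx1 was low outside the 3 libraries and Samd9l was not, and they mark the ends of this role at 3.05 and 1.37. Ifitm3, which blocks fusion of enveloped viruses, had the highest mean of all members. It stood at 1263, 1001 and 1270 FPKM in the 3, 459.9, 618 and 386 in the other females, 324, 329 and 474 in male controls and 397, 448 and 477 in male knockouts. Its separation was 1.62, on top of a high level in every library.

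Of the 7 genes of ISG15, ubiquitin and ADP-ribose transfer, 3 separated by more than 2. Isg15, the ubiquitin-like modifier, stood at 224, 192 and 236 FPKM in the 3, 36.5, 69.98 and 37.7 in the other females, 21.1, 22.5 and 30.9 in male controls and 27.5, 36.4 and 39.01 in male knockouts. Dtx3l, a ubiquitin ligase that pairs with PARP9, stood at 24.7, 20.6 and 23.9 FPKM in the 3, 11.8, 14.8 and 9.99 in the other females, 9.34, 8.30 and 10.2 in male controls and 8.23, 6.94 and 9.24 in male knockouts. Isg15 separated by 2.74 and Dtx3l by 1.40, and Dtx3l was among the 3 members in which female control 2 was the highest library, with Oas3 and Parp14.

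The 6 interferon-inducible GTPases, which act on vacuoles that hold pathogens, separated by 1.36 to 2.21, with 2 above 2. Ifi47 stood at 58.6, 49.3 and 70.8 FPKM in the 3, 16.7, 22.3 and 15.6 in the other females, 10.8, 10.4 and 12.8 in male controls and 9.79, 12.3 and 12.6 in male knockouts. Gbp7 stood at 14.5, 14.3 and 16.1 FPKM in the 3, 6.41, 10.5 and 7.19 in the other females, 5.48, 5.91 and 6.12 in male controls and 6.02, 6.17 and 7.24 in male knockouts. Female control 3 came close to the 3 libraries in Gbp7, and this set its separation.

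The other induced genes were Ifi27l2a, Ifi44, Ifi35, Xaf1 and Rtp4. Ifi44 stood at 8.34, 7.44 and 10.9 FPKM in the 3, 0.799, 1.52 and 0.987 in the other females, 0.420, 0.369 and 0.598 in male controls and 0.471, 0.420 and 0.638 in male knockouts. It had the widest spread of all members, 29.5 times from the lowest to the highest library, and with Mx2 it was below 1 FPKM in some libraries, while the other 43 reached 1 FPKM in all 12. Rtp4, a chaperone of membrane receptors, stood at 89.9, 77.6 and 93.9 FPKM in the 3, 34.8, 49.5 and 25.6 in the other females, 14.8, 17.8 and 28.8 in male controls and 31.1, 28.7 and 29.8 in male knockouts. Its separation was 1.57, and male control 1 lay below every other library.

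**Figure D2:**
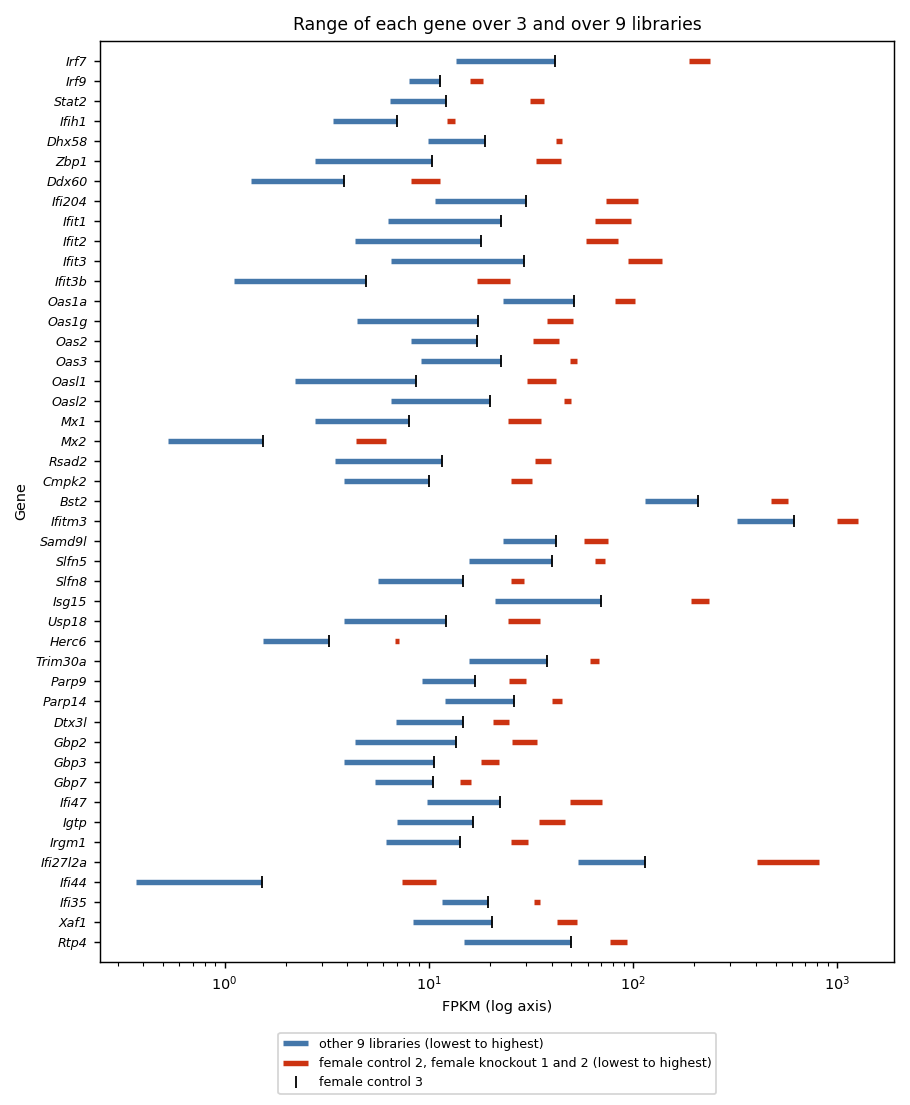
Range of FPKM (horizontal log axis) of each of the 45 genes over female control 2, female knockout 1 and female knockout 2 (red) and over the other 9 libraries (blue), with female control 3 as a black tick. The red and blue ranges do not overlap in any gene, and the tick marks the upper end of every blue range.

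Within the 3 libraries members varied by 1.05 to 2.01 times, with a median of 1.25. Female knockout 2 was the highest library in 40 members, female control 2 in 3, and female knockout 1 in Oas2 and Herc6. Within the other 9 libraries the range was 1.42 to 4.48 times, with a median of 2.54. Female control 3 was the highest of these 9 in all 45 members, where 13.6% of genes tested were highest there. It was 1.11 to 2.10 times the next library, with a median of 1.42. Female control 1 was second of the 9 in 30 members. The lowest library was male control 2 in 18 members and male control 1 in 12, and never a female one.

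The 3 lower female libraries, female controls 1 and 3 and female knockout 3, all lay above all 6 male libraries in 25 members, where 2% of genes tested did. Female control 1 lay above the 6 male libraries in 35 members (15.2% of genes tested) and female knockout 3 in 26 (11.6%). Female knockout 3 was below female control 3 in all 45 (53.3% of genes tested) and below both of these controls in 32 (40.3%). These counts share libraries with the choice of the 3 and are descriptions.

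The first comparison by label was knockout against control in males, none of whose libraries was among the 3. Comparisons used limma, a linear model per gene with variances moderated across genes, on log2(FPKM + 1). The main fit took all 12 libraries, with 1 spread per gene shared by the 4 groups. The spread among female libraries, the 3 high ones included, thus enters the standard errors and p-values in males. By limma, 0 of 45 members passed an adjusted p of 0.05, where 0.00817% of genes tested did (1 gene, Cx3cr1), and 0 members had an unadjusted p under 0.05, where 8.09% of genes were higher and 6.54% lower. With the male libraries fitted alone 0 of 43 members passed the adjusted threshold, while 8 were higher and 2 lower at an unadjusted p under 0.05. Of all 11441 genes in that fit, 1070 were higher and 931 lower by this count. By voom on rebuilt fragments 0 members passed in any of the 5 comparisons. The log2 change was positive in 26 members and negative in 19, with a median of 0.03 and a range of -0.42 to 0.65. Leaving out 1 library at a time gave 18 to 34 positive members and medians of -0.04 to 0.14, so the sign of the median was not stable. The 18 came without male knockout 3, the median of -0.04 without male control 2, and the 34 without male control 3. Over all genes tested 48.8% were positive, with a median of -0.00487. Roles differed in sign without a member passing: all 6 OAS genes and all 5 other induced genes had positive values, and all 4 IFIT genes negative ones. Genes of a role can vary together, so these signs are not separate observations. The standard error of the main fit exceeded the change in 43 of 45 members.

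Rtp4 had the lowest p of the members in males, at 20.5 ± 7.39 FPKM in controls and 29.9 ± 1.23 in knockouts (SD, n = 3), on the log2 scale a change of 0.58 with an SE of 0.458 (adjusted p = 0.599 by limma). Oas1g, chosen here with Ifit2 after its values were seen, stood at 4.48, 5.30 and 7.69 FPKM in male controls and 9.90, 7.69 and 11.2 in male knockouts. Its groups touched but did not overlap, with a log2-scale change of 0.65 with an SE of 0.531 (adjusted p = 0.613 by limma). Knockouts lay above controls without overlap in 3 members, Oas1g, Oas3 and Xaf1, where 12.5% of genes tested did. They lay below in 2, Ifit2 and Mx1, where 10.9% did. Ifit2, an RNA-binding protein, stood at 6.83, 5.24 and 7.29 FPKM in male controls and 4.51, 4.34 and 4.73 in male knockouts, on the log2 scale a change of -0.42 with an SE of 0.818 (adjusted p = 0.856 by limma). These SEs rest on the spread of all 12 libraries and do not measure the spread among male libraries. For Rtp4 the SE was 0.216 with male libraries alone (adjusted p = 0.248 by limma). Within batches, knockout exceeded control in 27 members in batch 1, 38 in batch 2 and 16 in batch 3, with median log2 differences of 0.04, 0.15 and -0.08. In the same comparison all 10 monocyte and macrophage markers had negative changes, with a median of -0.34, and 1, the fractalkine receptor gene Cx3cr1, fell. All 6 MHC class II and dendritic markers tested had negative changes, with a median of -0.55, and 4 were lower at an unadjusted p under 0.05. The part of these markers in the members' values was not tested.

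In females, 2 of the 3 high libraries carried the knockout label and 1 the control label. By limma 0 of 45 members passed, where 0% of genes tested did, and 0 had an unadjusted p under 0.05, where 5.27% of genes were higher and 6.09% lower. All 45 log2 changes were positive, from 0.06 to 1.11 with a median of 0.39, while over all genes 47.9% were positive with a median of -0.00827. In the same comparison 10 of 10 osteoclast markers had negative changes (median -0.25, with 2 at an unadjusted p under 0.05), and 6 of 6 MHC class II and 6 of 6 plasmacytoid dendritic markers had positive ones (medians 0.11 and 0.30). None of these passed the adjusted threshold, and their part in the members' values was not tested. The standard error of the members, 0.245 to 0.877, exceeded the change in 38 of 45 members. The groups overlapped in all 45, where 6.38% of genes tested were higher in every knockout and 6.85% lower. Ifi27l2a, with the lowest p, stood at 205 ± 174 FPKM in controls and 483 ± 359.5 in knockouts (SD, n = 3), on the log2 scale a change of 1.11 with an SE of 0.715 (adjusted p = 0.538 by limma). Library quality weights, which ran from 0.275 in female control 2 and 0.330 in female knockout 3 to 4.72 in female knockout 1, changed this call. With them 43 of 45 members passed in females, where 32.6% of genes tested did, 14 averaged over the sexes (13.2% of genes) and 9 for the difference between the sexes (29.4% of genes). The weights were estimated from these same data. They were lowest in the control library that was high and in the knockout library that was not, so these calls are a description. Without weights, for Irf7 the change was 0.75 with an SE of 0.877 (adjusted p = 0.720 by limma), and for Ifit3 it was 0.52 with an SE of 0.843 (adjusted p = 0.799 by limma).

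The direction in females turned on single libraries. Without female control 1, 22 of 45 members were positive, with a median of -0.02. Without female knockout 2, 21 were positive, with a median of -0.01. Without female knockout 3 all 45 were positive with a median of 1.02, and 37 had an unadjusted p under 0.05 (9.19% of genes were higher by this count), though 0 passed the adjusted threshold. Without female control 2 all 45 were positive with a median of 0.87. Without female knockout 1 the median was 0.13, and without female control 3 it was 0.27. With all 3 high libraries left out, 0 of 44 members that could be tested were positive, and the median was -0.39. That fit sets 1 knockout library against 2 controls, assumes that the lone library varies like the other groups, and leaves libraries out by the level being compared, so its values are a description.

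Within batches the female differences were far apart. In batch 1 all 45 members were higher in the knockout library, with a median log2 difference of 1.53 and a range from 0.73 in Irf9 to 2.91 in Irf7. In batch 2, where both libraries were among the 3, 42 were higher, with a median of 0.16. In batch 3 all 45 were lower in the knockout library, with a median of -0.63 and a range from -1.21 in Ifit3 to -0.16 in Ifi27l2a.

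**Figure D3:**
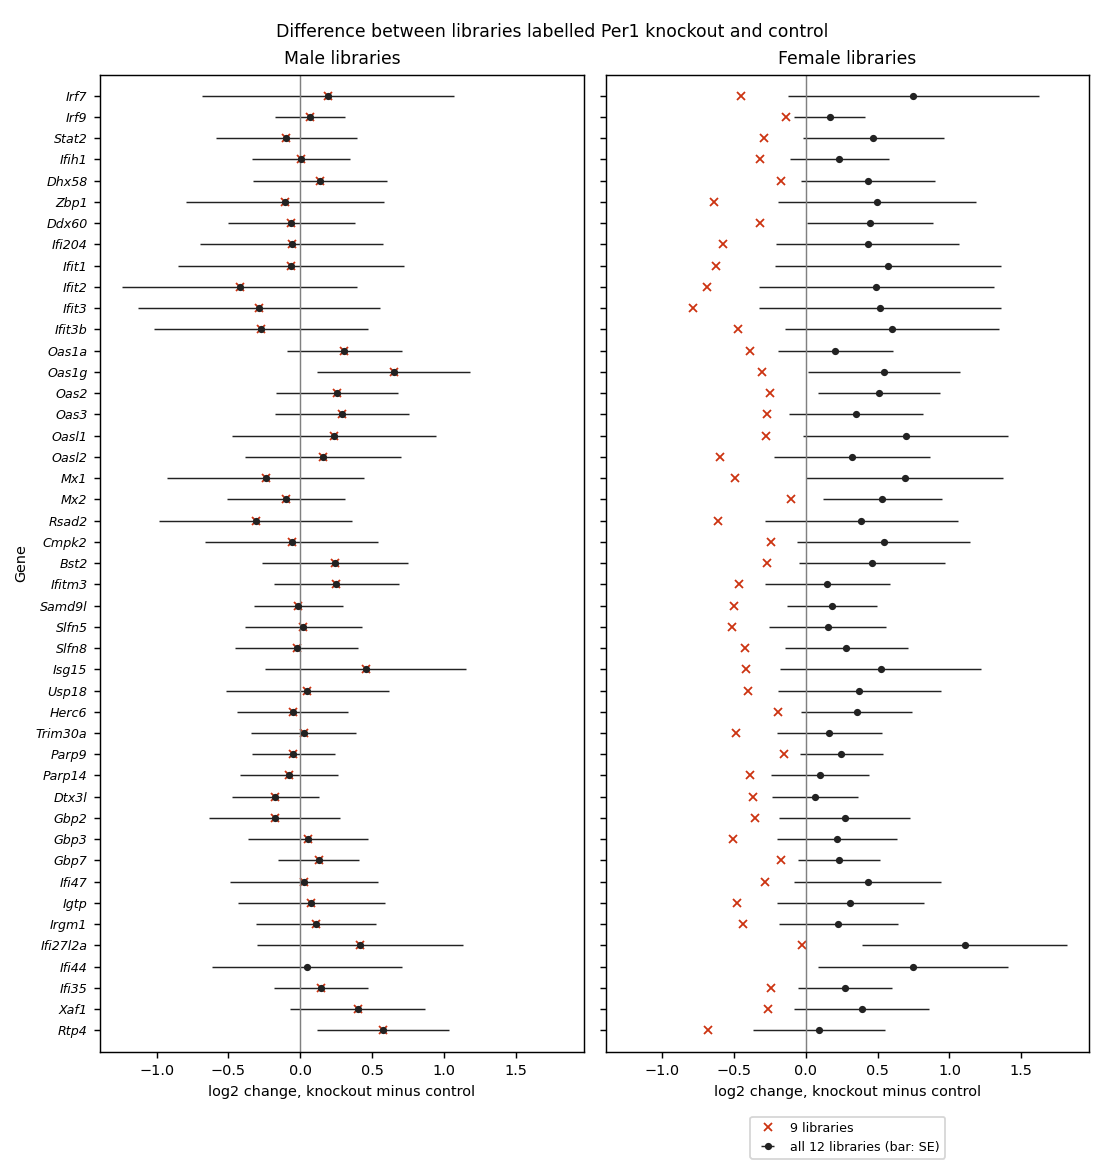
Log2 change of each of the 45 genes (vertical axis) between libraries labelled knockout and control in males (left) and females (right), on the log2(FPKM + 1) scale. Black points with bars are the changes and standard errors with all 12 libraries, and red crosses are the changes with 9 libraries, where 44 genes could be tested. The bars rest on a spread shared by all 12 libraries, in males too. The crosses sit on the points in males, and in females they lie below 0 in all 44 genes while the points lie above 0 in all 45.

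Averaged over the sexes, 0 of 45 members passed, where 0.00817% of genes tested did, and 0 had an unadjusted p under 0.05, where 4.98% of genes were higher and 5.43% lower. The change was positive in 44 members, with a median of 0.19, and in 48.9% of all genes. Leaving out 1 library at a time gave 25 to 45 positive members and medians of 0.00944 to 0.54, the 25 without female control 1 and without female knockout 2. With the 3 high libraries left out 6 of 44 were positive, with a median of -0.16. Oas1g had the lowest p, with a log2-scale change of 0.60 with an SE of 0.375 (adjusted p = 0.612 by limma). The change in females minus the change in males passed in 0 of 45 members and in 0% of genes, and 0 members had an unadjusted p under 0.05 (7.49% of genes were higher and 9.47% lower). It was positive in 40 members with a median of 0.29, and in 49.1% of all genes. Mx2, an antiviral GTPase, had the lowest p, with a log2 difference of 0.63 with an SE of 0.584 (adjusted p = 0.578 by limma). With the 3 high libraries left out the median of this difference was -0.47, and 0 of 44 were positive.

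Female controls were compared with male controls without regard to the knockout. By limma 0 of 45 members passed the adjusted threshold, where 0.0572% of genes tested did. At an unadjusted p under 0.05, 27 members were higher in females, where 3.05% of genes were, and 0 were lower. All 45 changes were positive, from 0.49 in Irf9 to 1.92 in Ifit3, with a median of 1.21, while 52.4% of all genes were positive with a median of 0.00794. Rtp4 had the lowest p, 20.5 ± 7.39 FPKM in male and 58.1 ± 28.5 in female controls (SD, n = 3), on the log2 scale a change of 1.40 with an SE of 0.458 (adjusted p = 0.839 by limma). All 6 OAS genes and all 6 GTPases were among those with an unadjusted p under 0.05, and 1 of 4 IFIT genes was. This comparison includes female control 2. Without it all 45 changes stayed positive with a median of 0.72, and 0 members had an unadjusted p under 0.05 (3.97% of genes were higher). Female knockout 3 is not in this comparison, and leaving it out kept the median at 1.21 and altered only the spread. The count of members with an unadjusted p under 0.05 was 44 without female control 1 (3.82% of genes were higher) and 45 without female knockout 3 (4.33%). With all 3 high libraries left out it was 42 of 44 (5.45%), with a median of 0.72, in a fit whose spread is narrowed by leaving libraries out by level. No member passed the adjusted threshold in these fits. With the replicate number as a block the median was 1.07, and 13 members had an unadjusted p under 0.05 (2.09% of genes were higher).

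The interferon genes themselves were at the limit of detection. Of 17 type I interferon genes, 15 had 0 fragments in all 12 libraries, among them 13 interferon alpha genes. For Ifna4 a count of 0 allows up to 0.212 to 0.336 FPKM, depending on the library and for counting error only. Ifnb1, which encodes interferon beta, had 4, 4 and 5 fragments in the 3 high libraries, 1, 3 and 0 in the other female libraries, and 0 in all 6 male libraries. Ifnk, an interferon of the skin, had 28 fragments spread over male and female libraries, and the type II interferon gene Ifng had 5. The interferon lambda genes Ifnl2 and Ifnl3 had 0 fragments in all libraries. At 17 fragments of Ifnb1 in all, levels could not be ranked within females.

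Receptor chains and kinases were expressed in all libraries with small differences. Ifnar1 stood at 35.04, 36.02 and 37.2 FPKM in the 3, 31.8, 35.4 and 31.3 in the other females, 33.2, 31.2 and 32.98 in male controls and 28.9, 27.6 and 29.6 in male knockouts. Ifnar2 stood at 21.5, 19.6 and 21.2 FPKM in the 3, 17.6, 18.7 and 19.04 in the other females, 20.9, 16.05 and 18.01 in male controls and 15.5, 15.5 and 17.2 in male knockouts. Both receptor chains overlapped between the 3 libraries and the 9. Jak1 was at 27.2, 24.7 and 25.2 FPKM in the 3 and overlapped the others, while Tyk2 was at 16.8, 17.3 and 17.6 FPKM and lay above the others, the highest of which was male control 2 with 14.7. Of 9 receptor and signalling genes tested, 2 (Tyk2 and Stat3) lay above in all 3 libraries, where 10.1% of all genes tested did. By limma 0 of the 9 passed in any of the 5 comparisons. In male knockouts 5 of 9 were lower at an unadjusted p under 0.05, where 6.54% of all genes were. Irf3, the factor that starts interferon transcription, was at 12.4, 12.5 and 13.3 FPKM in the 3 and overlapped the others.

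Other pathway lists, chosen with earlier results of these data known, were counted in the same way. Among upstream sensors and adaptors 8 of 14 tested genes lay above in all 3 libraries, where 10.1% of all genes tested did. Among feedback inhibitors 2 of 5 lay above (Socs1 and Ptpn6), and among further interferon-stimulated genes 42 of 44. Of the genes that respond mainly to interferon gamma, 11 of 13 did. Some of these genes passed the filter on low values only with the 3 high libraries counted, so the counts are descriptions. Without the 3, the filter kept 13 upstream genes, 4 feedback inhibitors, 43 further interferon-stimulated genes and 11 genes of the interferon gamma list. Of these lists 0 genes passed in any of the 5 comparisons by limma, and 15 of the 44 further interferon-stimulated genes were higher in female than in male controls at an unadjusted p under 0.05, where 3.05% of all genes were, and 25 of 43 with the 3 high libraries left out (5.45% of all genes). In females knockout against control was positive in 44 of 44 further interferon-stimulated genes, with a median log2 change of 0.27, and in males in 19 of 44, with a median of -0.04. With the 3 high libraries left out, 3 of 43 were positive in females, with a median of -0.24.

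**Figure D4:**
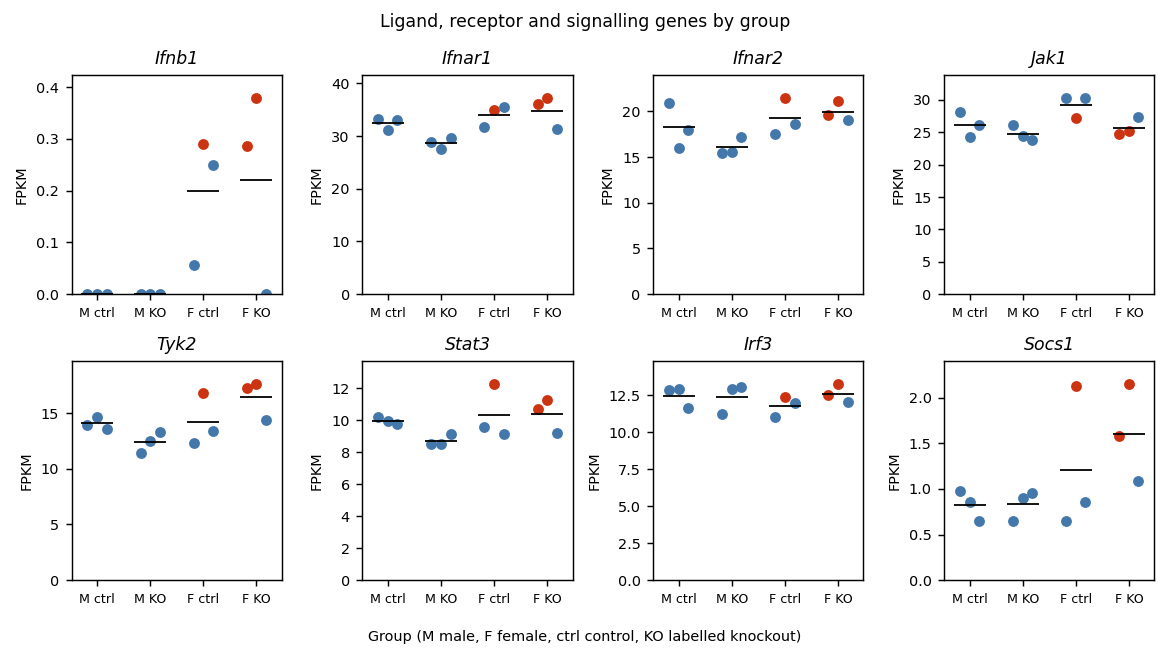
FPKM (vertical axis, from 0) of 8 genes by group, with 1 point per library and a line at the mean of each group of 3. Red points are female control 2, female knockout 1 and female knockout 2, which lie above the other 9 libraries in Tyk2, Stat3 and Socs1 and overlap them in Ifnar1, Ifnar2, Jak1 and Irf3, and Ifnb1 is above 0 only in 5 female libraries.

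Markers of osteoclasts and of other marrow cells were counted in the same way, where 10.1% of all genes tested lay above in all 3 libraries and 10.1% below. Osteoclast markers were abundant everywhere, with the collagen-cleaving protease gene Ctsk at 5138, 4387 and 4341 FPKM in the 3 libraries and 5476 to 8117 in the 9. Of 10 osteoclast markers, 6 lay below the 9 in all 3 libraries (Ctsk, Dcstamp, Ocstamp, Itgb3, Atp6v0d2 and Nfatc1), and the summed level of all 10 was 9860 to 11950 FPKM against 12106 to 17711. Monocyte and macrophage markers lay above in 5 of 10, with sums of 1381 to 1636 FPKM against 1071 to 1479. Among those above the 9, Adgre1 stood at 165, 132 and 155 FPKM, and Fcgr1, also induced by interferon, at 48.2, 42.5 and 61.4 FPKM against 4.12 to 11.8 in the 9. Cx3cr1, Csf1r, Mrc1, F13a1 and Cd68 did not lie above in all 3. Separation over the 10 had a median of 0.963, from 0.459 to 3.61 in Fcgr1.

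Sums run over every gene of a marker list, also those below the filter, while counts cover tested genes. MHC class II and dendritic markers lay above in 4 of 6 tested, with sums of 620 to 718 FPKM against 280 to 599. Plasmacytoid dendritic markers, of the cells known as strong interferon producers, lay above in 3 of 6 tested, with sums of 26.1 to 37.4 FPKM against 10.98 to 20.6. Siglech, which defines these cells, stood at 3.27, 4.71 and 5.41 FPKM in the 3 and at 0.819 to 3.90 in the 9, so that female control 3 exceeded female control 2. Lymphocyte markers lay above in 2 of 5 tested, with sums of 28.8 to 38.3 FPKM against 11.3 to 27.6, and the T cell gene Cd3e was at 0.0557 FPKM or less in every library. Neutrophil markers lay above in 2 of 10, with sums of 2323 to 2932 FPKM against 1410 to 2819. Stromal and endothelial markers lay above in 1 of 3 tested, with sums of 7.11 to 9.97 FPKM against 1.97 to 4.69. Without the 3 high libraries, the filter kept 2 stromal and endothelial and 4 lymphocyte markers. The 1 erythroid marker tested overlapped, and all 7 on that list summed to 2.53 to 7.37 FPKM against 1.30 to 5.04. No marker on these lists was at 0 in all 12 libraries. Mitochondrial transcripts took 2.80% to 3.09% of fragments in the 3 libraries and 3.15% to 3.73% in the 9, and ribosomal RNA genes 1.21% to 1.30% against 0.437% to 1.48%. The part of these markers and measures in the interferon gene levels was not tested.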

How the data were processed

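The authors deposited FPKM per gene for 12 libraries, that is fragments scaled by gene length and library depth. Build mm10, HISAT2 2.0.5 and featureCounts 1.5.0-p3 appear, without roles, in the submitters' processing notes. Multiplied by gene length, 100% of values were whole multiples of 1 fragment (tolerance 0.01), which gave back the fragments. For a 1 kb gene, 3 fragments equal 0.119 to 0.188 FPKM, a floor that covers counting error only.

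The 12237 genes that reached 1 FPKM in 3 or more libraries were fitted with limma 3.58.1 in R 4.3.3 on log2(FPKM + 1), with a mean per group, trended moderation, two-sided tests and Benjamini-Hochberg adjustment over all genes at 0.05. This scale understates changes of low genes. The script was tested on simulated data. Libraries of the same number share a batch per the labels' batch field, which pairs them by design. Of 18 same-numbered pairs, 4 had deviations from group means that correlated above 0.1 (-0.217 to 0.44). Replicates differed by more than sampling noise, with chi-square per degree of freedom of 5.11 to 49.7. Promoter windows came from RefSeq on GRCm38.p6. The build of the gene coordinates in the table is uncertain, and none are given.

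Members, lists, comparisons and the 3 high libraries were chosen with earlier results of these data known. Values in every library are given for the members of highest and lowest separation in each of 8 roles. They are also given for the most abundant member, any member that passed, Ifnar1, Ifnar2, Ifnb1 and the ligands without fragments. Jak1, Tyk2 and Irf3 are given mainly in the 3 high libraries, and Ifnk and Ifng as totals. A further pathway gene is not reported here. Alternatives covered pseudocount, filter, scaling, voom on rebuilt fragments, library weights, the libraries fitted, the replicate block and leaving out each library.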

Additional observations from a re-analysis of the deposited data

How the results depend on the processing

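With library quality weights, which ranged from 0.275 (female control 2) to 4.72 (female knockout 1), limma passed 1356 genes in males, 3984 in females, 1610 averaged and 3600 for the difference between the sexes. Members then passed in females (43), averaged (14) and in the difference (9, with a median of 1.02), among them Ifi27l2a in females (2.13, adjusted p = 0.00704). The weights were estimated from these same data, gene by gene because the default estimate did not converge, so these calls are a description. No other setting passed a member. The gene called in males (1 in all) became 4 and 3 with pseudocounts of 0.1 and 0.5, 2 without a filter, 7 with a filter of 5 FPKM, 5 by voom, 2 with 9 libraries and 0 with male libraries alone. Leaving out 1 library at a time gave 0 to 67 genes in males, the 67 without male control 3. Without a filter 75 genes passed in females, 13 averaged (1 with the filter) and 16 for the difference, and a pseudocount of 0.1 gave 1 for the difference. With 9 libraries 0 passed averaged, the median difference of members was -0.47, Ifi27l2a in females turned to -0.0278 (adjusted p = 0.988) and the difference of Mx2 to -0.00353 (adjusted p = 0.996). For female against male controls 7 genes became 4 with the filter of 5 FPKM, and leaving out 1 library gave 6 to 8. With the replicate block, where this difference is fitted for replicate 1, the count was 4. The replicate block gave 0 genes in males in place of 1 and changed no other call on members. The causes were not tested. Depth limits the ligand genes, while members rested on 31 to 15880 fragments per library.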
